A study of Mus musculus with 7 samples.

Results

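The downstream untranslated regions of coding transcripts, the stretches of mRNA between the stop codon and the annotated end, were taken from the longest protein-coding transcript of each nuclear gene in GENCODE M21 (GRCm38) and kept where they were 500 bases or longer. This gave 14034 regions out of 21630 genes with a complete longest coding transcript. The rule itself uses annotation and length only, though it was drawn up with earlier results of these data known. The regions spanned 29048664 bases, with a median length of 1561 bases and quartiles of 930 and 2638 bases. The series is RNA immunoprecipitation sequencing (RIP-seq) from nuclei of mouse embryonic stem cells kept in LIF and otherwise untreated, where an antibody recovers a protein from nuclear lysate and the accompanying RNA is sequenced. Of 7 labelled libraries, 5 used an antibody against Ezh2 on cells of the strain 129X(M.castaneusX129), including a technical replicate, a biological replicate, and deeper sequencing (2 lanes each) of the first sample and of the biological replicate. A sixth used the same antibody on Ezh2 null cells labelled M.musculus, and the seventh used IgG on 129X(M.castaneusX129) cells. The file analysed is a single table of read sequences with counts. No label says which of the 7 libraries, or how many of them, it holds. It holds 34072479 reads of 6540936 distinct sequences, 24772940 of them 40 and 6252281 of them 36 bases long, and 36.1% of the 31529044 reads searched were assigned to a single gene. The table was handled as 1 sample of unknown make-up without replicates, so no value below is an enrichment over IgG or over Ezh2 null, and no comparison between groups was made.

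The region after the stop codon carries the signals for cleavage and polyadenylation and much of the sequence through which an mRNA's stability, translation and location are controlled. MicroRNAs, and proteins that bind AU-rich or Pumilio elements, act mainly there. Ezh2 is the catalytic subunit of Polycomb repressive complex PRC2, which methylates histone H3 and is known to bind many RNAs.

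Reads were assigned by sequence, and each is described by its start position. Reads of mRNA in this table run as the reverse complement of the RNA, so that the start of a read lies at the RNA's right-hand side. The first 6 bases of each read were left out, and the start position is the RNA base next to them. Along the RNA, bases 1 to 6 past the start are thus those opposite the omitted bases, and bases 7 onward were never read. The highest start positions of 8 of the 10 regions with most sense reads are shown as RNA-strand DNA letters, because the bases past the start turned out to be unusual. Each has 21 bases up to the start and 9 past it, with bases 7 to 9 past the start in capitals.
Lefty2, chr1:180899072-180899101, plus strand: ggagtatcaataaaagactggggcaagAGA
Zfp281, chr1:136628306-136628335, plus strand: agaaaaaaggaaaaaaaaagaaactttGTT
Sparc, chr11:55395392-55395421, minus strand: acaaagtaagaaagaaactagaacccaAGT
Fkbp2, chr19:6979047-6979076, minus strand: cgggggccgaaggcaaacggaagctgcAGA
Tm9sf3, chr19:41211426-41211455, minus strand: tgtgttgaagactagactagatttgcaGAA
Tmem245, chr4:56871786-56871815, minus strand: gaaatcacagactctttaaaatgcctcAGA
Rpsa, chr9:120131501-120131530, plus strand: gtgcaggtgcctgagcaaagggaaaaaAGA
Gxylt1, chr15:93242211-93242240, minus strand: aggaagaggaagtagagaagaaaaggaAGA
In 5 of these 8 stretches the capitals read AGA. The Lefty2 stretch also holds the polyadenylation signal AATAAA and its start position lies 11 bases before the annotated end.

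Downstream regions had a lower density of reads than the coding sequences of the same transcripts. They held 737862 sense reads at 64727 start positions, against 3415233 reads at 148468 positions in coding sequence and 42529 reads at 7351 positions upstream of it. That is 2.23 sense start positions per kb downstream and 6.12 per kb in coding sequence, a ratio of 0.364. By reads the densities were 25.4 and 140.9 per kb, a ratio of 0.180, which was 0.227 without Serbp1. Downstream regions made up 50.8% of the bases of these transcripts but 17.6% of their sense reads (95% Clopper-Pearson interval 17.55 to 17.62) and 29.3% of their sense start positions (29.16 to 29.54). Intervals cover counting error only, since copies made by PCR cannot be told from separate molecules. The share of 34-base windows that could be placed back on their own gene was 95.5% downstream and 93.1% in coding sequence, so the part with the lower density had the larger placeable share.

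Most regions were read little. Of the 14034 regions, 9167 had a sense read and 2143 had at least 50, which is 15.3% of all members. These 2143 held 87.3% of the downstream sense reads, and the 10 regions with most reads held 18.96%. The other 4867 regions had 0 of 31529044 searched reads assigned in sense orientation, which allows up to 3 placeable reads each. Reads that matched several genes (11.3% of those searched) were not assigned, so the limit does not cover sequence that cannot be placed. Reads were nevertheless less concentrated than in coding sequence, where 828 positions (0.558%) held the upper 50% of the reads. Downstream, 2881 positions (4.45%) did. Serbp1 alone gave 711052 of the 3415233 coding sense reads, and this comparison was not repeated without it.

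Start positions thinned out with distance from the stop codon. In the regions of 2000 bases or longer whose coding sequence has at least 500 bases, the 100 bases before the end of the stop codon had 5.05 sense start positions per kb. The first 100 bases after it had 3.55, the 100 bases from 400 on had 2.57, and those from 1900 on had 1.796. The share of the 4956 regions with any start in the bin went down as well, from 19.03% to 16.001%, 12.8% and 9.54% over the same 4 bins. Counted back from the annotated end, the density was 2.16 per kb in the 100 bases that begin 2000 bases before it and 1.57 in the last 100. Over the 10044 regions of at least 1000 bases, the first 500 bases held 15427 positions (3.07 per kb) and the last 500 held 9245 (1.84 per kb), a ratio of 1.67. Within the downstream region the share of placeable windows stayed between 96.0% and 96.8% in these bins, against 92.8% just before the stop codon.

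**Figure D1:**
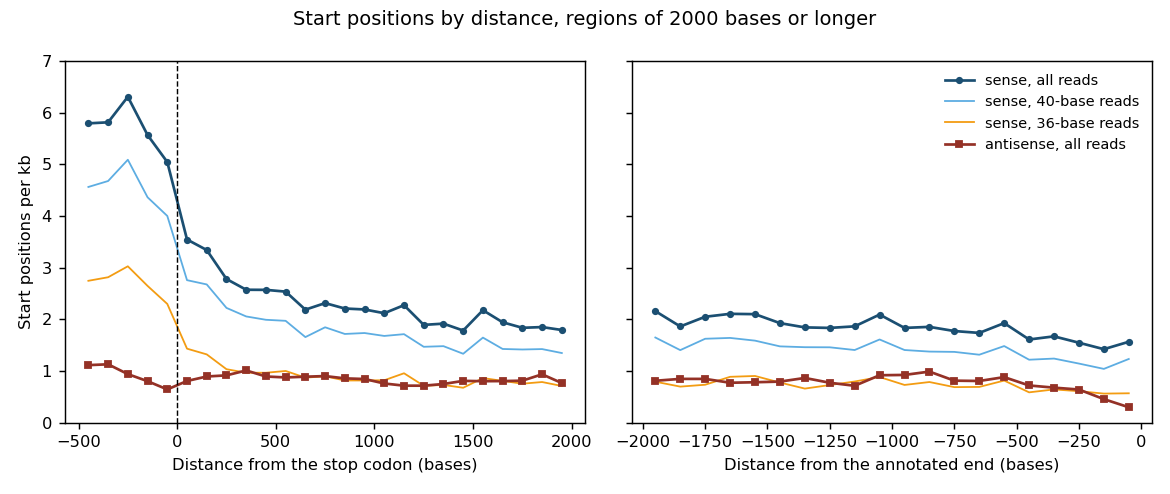
Start positions per kb in bins of 100 bases, measured from the stop codon (left, dashed line; negative values are coding sequence) and from the annotated end (right), for regions of 2000 bases or longer; lines are sense positions of all, 40-base and 36-base reads, and antisense positions. Sense density falls from 5.05 per kb just before the stop to 1.57 in the last 100 bases, while antisense density lies between 0.718 and 1.01 over the first 2000 bases after the stop and is 0.301 in the last bin.

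Longer regions were more often read, while their pooled density was lower. Of the 3990 regions under 1000 bases, 46.04% had a sense read, and of the 1447 regions of 4000 bases or longer, 92.9% did. The pooled density was 2.86 positions per kb in the shortest class and 2.502 from 1000 to under 2000 bases. It was 2.13 from 2000 to under 4000 bases and 1.91 in the longest class. The median density over all regions of a class went the other way, at 0, 0.762, 0.949 and 1.10 per kb. Pooled coding density of the same genes was 6.40, 5.93, 6.15 and 5.99 per kb in these classes. The ratio of pooled downstream to coding density fell from 0.446 to 0.319. Across the 9167 regions with a read, log2 length and log2 positions per kb were correlated at -0.33 (Pearson) and -0.32 (Spearman). A region with a single position has a density that falls with its length by construction, so this correlation is only a description.

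In the genes with enough positions to compare, the downstream region was usually the thinner part. Among 2757 genes with at least 20 sense start positions in both parts together, 1810 had a coding density at least 2-fold above that of their own downstream region, 357 had the reverse, and 590 lay within 2-fold. Coding sequence was thus denser in 65.7% and the downstream region in 12.9% of the genes compared. The minimum applies to the sum of both parts, so a gene can enter through 1 dense part alone. With minimums of 10 and 50 positions, 16.7% and 8.89% were denser downstream. Over all 14034 members the median densities were closer, at 0.849 positions per kb downstream and 1.02 in coding sequence. The median ratio of downstream to coding density in the 2757 genes was 0.266, with quartiles of 0.0899 and 0.791. No downstream position was seen in 189 of these genes, and no coding position in 71. The 357 genes with the denser downstream region had a median region length of 2083 bases and a coding GC content of 53.97%. The 1810 with the denser coding sequence had 1848 bases and 50.06%. Purines made up 51.3% of the coding bases in the first group and 54.3% in the second (medians over genes), and 49.3% and 48.4% of the downstream bases. Across all 14034 genes the densities of the 2 parts had a Spearman correlation of 0.469, where both share the abundance of the mRNA.

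**Figure D2:**
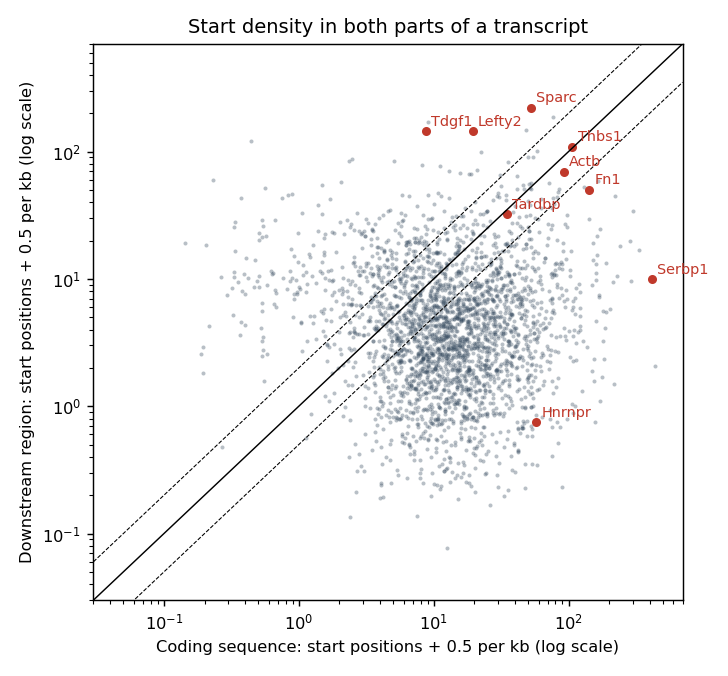
Each point is 1 of 2757 genes, with sense start positions per kb (0.5 position added) in coding sequence on the x axis and in the downstream region on the y axis, both on log scales; the solid line marks equal density and the dashed lines 2-fold. Most points lie below the lower dashed line; Lefty2, Tdgf1 and Sparc lie above the upper one, and Serbp1 and Hnrnpr far below.

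Serbp1, an mRNA-binding protein gene, had 711052 sense reads at 509 positions in 1224 coding bases, but only 1468 reads at 137 positions in its 13777 downstream bases. Its density was 415.9 positions per kb in coding sequence and 9.94 downstream, a ratio of 0.0239. Hnrnpr, whose product binds pre-mRNA, had 14 positions in 19419 downstream bases (0.721 per kb) against 57.4 per kb in coding sequence. For Hnrnpr, 99.2% of the downstream and 62.2% of the coding windows could be placed on a single gene. The downstream regions of Serbp1 and Hnrnpr are those of the longest annotated transcript. Whether the mRNAs in these cells reach that end was not tested. Fn1, the fibronectin gene, had 49.4 per kb downstream and 142.6 in coding sequence. Actb, which encodes cytoplasmic actin, had 874 downstream reads at 47 positions, with 68.8 positions per kb downstream and 91.3 in coding sequence. Only 69.2% of the downstream and 56.5% of the coding windows of Actb could be placed, so both densities are incomplete. Tdgf1, the gene of a Nodal co-receptor, had 143.5 downstream and 7.75 in coding sequence. Only 40% of its coding windows could be placed on a single gene, against 100% downstream, so this contrast cannot be read as a difference between the 2 parts. Thbs1, which encodes the matrix protein thrombospondin, had close densities in both parts, with 109.3 positions per kb downstream and 106.4 in coding sequence.

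The region with most sense reads was that of Lefty2, a secreted inhibitor of Nodal signalling. Its 1290 bases (chromosome 1, 180897814 to 180899103, plus strand, 1 exon) held 66725 sense reads at 185 positions, while its 1107 coding bases held 36 reads at 21 positions. For Lefty2, 68.2% of the coding windows and 100% of the downstream windows could be placed on a single gene, so part of its coding sequence could not be counted. The 200 bases from 1089 to 1288 after the stop codon, at the very end of the transcript, took 99.4% of the region's reads and 83.2% of its positions. Its 3 highest positions, at 1279, 1277 and 1280, had 18534, 8384 and 7342 reads. Positions 1 or 2 bases apart may differ only in how many leading bases of a read matched, and were counted as separate starts.

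In other top regions, too, most reads lay in a short stretch. The share in the densest 200 bases was 96.6% of 7781 reads in Tm9sf3, 91.4% of 6674 in Gxylt1, 82.9% of 6909 in Tmem245, 80.2% of 6936 in Tardbp, the gene of an RNA-binding protein, and 82.2% of 7793 in Fkbp2. In Tm9sf3 that stretch was bases 5483 to 5682 of 6198, far from the stop codon. Zfp281, a zinc finger factor gene of stem cells, had 11704 reads at only 14 positions, of which 6000 and 5494 lay at neighbouring bases 359 and 358 in the A-rich stretch shown above. All of these were 40-base reads. At the highest position of Tm9sf3, 1765 of 1792 reads were 26 to 35 bases long, and at that of Fkbp2, 1734 of 1919 were 36-base reads. The read lengths behind the highest position thus differed from region to region.

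**Figure D3:**
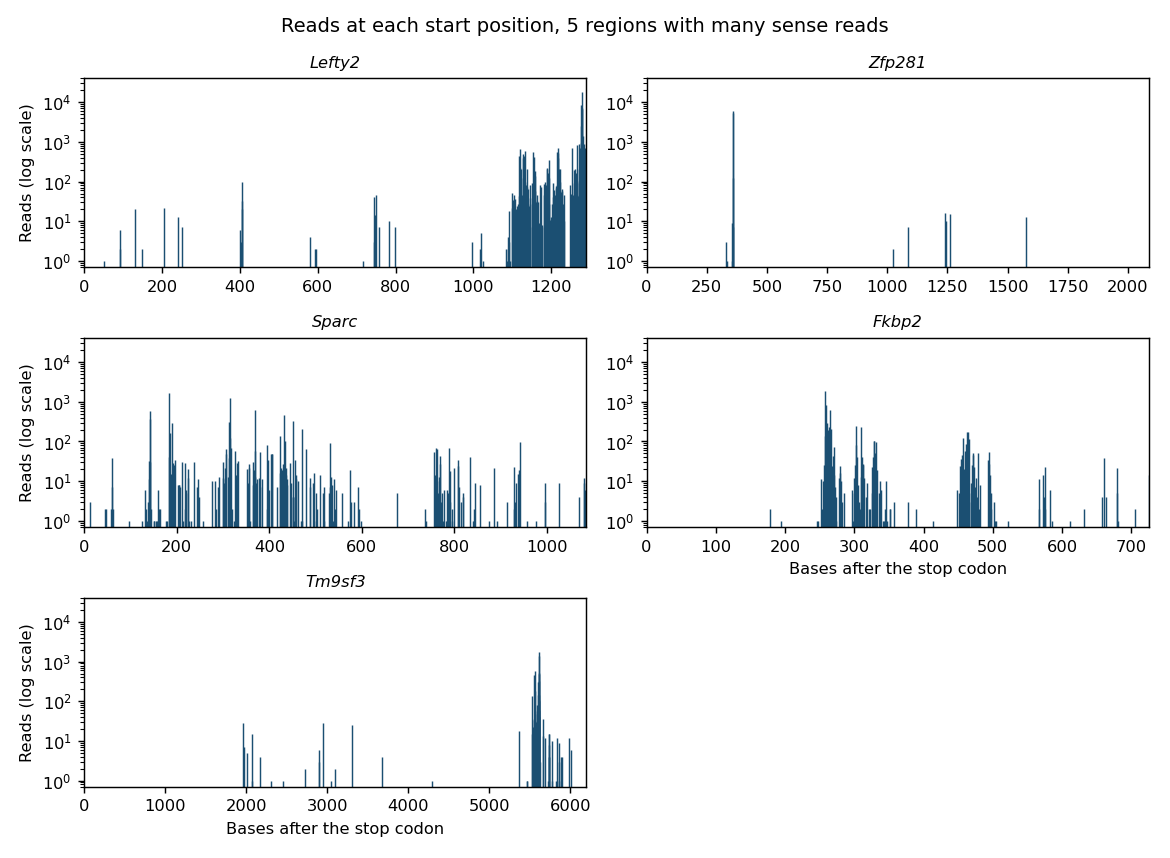
Sense reads (log scale) at each start position of 5 of the 6 regions with most sense reads, by distance from the stop codon in bases. Reads form dense blocks at the end of Lefty2 and near the end of Tm9sf3, lie at a pair of neighbouring bases in Zfp281, and spread over much of Sparc.

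Sparc, the gene of a collagen-binding matrix protein, was the most densely started region with at least 50 reads. It had 9696 reads at 239 positions in 1085 bases, or 220.3 positions per kb, and its densest 200 bases held 58.7% of the reads. It was followed at 186.2 by Fkbp2, a prolyl isomerase gene, and by Lars2, the mitochondrial leucyl-tRNA synthetase gene, at 169.4. Then came Cd81, a tetraspanin gene, at 146.4, Tdgf1 at 143.5, Lefty2 at 143.4, Actg1 at 120.0, Thbs1 at 109.3, Acin1 at 100.5 and Mrfap1 at 98.1. The longest coding transcript of Fkbp2 has its 725 downstream bases in 6 exons, unlike the single exon of most members. Over all members, 0.644% of downstream bases are coding in another isoform. For Fkbp2 alone this share was not examined, so its reads and rank may include bases that other Fkbp2 transcripts translate. Rpsa, a ribosomal protein gene, and Actg1, another cytoplasmic actin gene, had 6826 and 4410 downstream reads and 0 in coding sequence. Only 5.56% and 4.35% of their coding windows could be placed on a single gene, against 100% of their downstream windows, so their ratio cannot be read as a difference between the 2 parts.

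By number of start positions, D10Wsu102e came first with 520 sense positions, but its annotated region runs over 122583 bases and had 4.24 positions per kb. Of the windows of D10Wsu102e, 83.4% could be placed on a single gene, beside 95.5% over all downstream regions, so its density is incomplete. Sparc followed with 239 positions, Thbs1 with 230, Slc2a3, a glucose transporter gene, with 191, Tardbp with 188 and Lefty2 with 185. Lars2 had 167, Tdgf1 and Gxylt1 had 158 each and Bcat1, a branched-chain aminotransferase gene, had 146. Among other very long annotated regions, D1Ertd622e (39397 bases) had 0.761 positions per kb, Zbtb20 (23858 bases) 0.629 and Vmn2r76 (23182 bases) 1.81, beside a median of 1.10 over regions of 4000 bases or longer.

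The gene lists are described by their counts, since lists and regions were chosen with earlier results of these data known. Over all members the median was 0.849 positions per kb downstream and 1.02 in coding sequence, and many of these genes had few or no reads.

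Genes of embryonic stem cell identity had 23 members, of which 22 had a sense read and 16 at least 50. Their median density was 6.13 positions per kb downstream and 8.21 in coding sequence. Of 17 with enough positions to compare, 5 were 2-fold denser downstream and 6 in coding sequence. Of these 5, Tdgf1 and Lefty2 have the limited coding placement given above (40% and 68.2% of windows). The other denser downstream regions, with 100% of windows placed in both parts except for 96.8% downstream in Tfcp2l1, were those of Fgf4, a growth factor gene, with 29.5 against 8.21 positions per kb, and of the transcription factor genes Sox2, with 22.1 against 1.04, and Tfcp2l1, with 6.34 against 2.08. Lin28a, which encodes an inhibitor of let-7 processing, lay on the other side with 6.13 downstream and 44.4 in coding sequence. Tet1, a 5-methylcytosine oxidase gene, likewise had 3.65 and 27.3. Pou5f1 and Ezh2 are not members, since their regions are 221 and 402 bases long.

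Transcripts known for AU-rich elements, many of them unstable, had 26 members with a median of 6.56 positions per kb downstream and 4.80 in coding sequence. Among 13 with enough positions, 0 were 2-fold denser downstream and 2 in coding sequence. Their median ratio was 1.16, beside 0.266 over all genes compared. The stem cell identity list, which shares Klf2 and Klf4 with this one, had a close median ratio of 1.04 over 17 genes. In the other lists it lay between 0.205 and 0.455. Slc2a1, a glucose transporter gene, had 46.8 downstream and 29.8 in coding sequence. Klf4, a pluripotency factor gene, had 22.4 and 19.3, and Vegfa, an angiogenic factor gene, had 15.6 and 14.5. The p53-induced cell cycle inhibitor gene Cdkn1a had 162 downstream reads at 13 positions, or 9.75 per kb. The downstream regions of the cytokine genes Tnf and Il6 and of the stress factor gene Atf3 had 0 sense reads, which allows up to 3 placeable reads each.

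Known targets of the miR-290 family and of let-7, the microRNAs of stem and of differentiated cells, had 23 members with a median of 3.58 positions per kb downstream and 8.56 in coding sequence. Of 11 compared, 3 were denser downstream and 6 in coding sequence. Lefty2, Lin28a and several others belong to more than 1 list. The cyclin genes Ccnd1 and Ccnd2 had 13.1 and 8.51 positions per kb downstream, and the ubiquitin ligase gene Trim71 had 7.98 against 1.95 in coding sequence. Lin28b had 65 downstream reads, of which 57 lay at 1 position.

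Regulators that bind mRNA had 25 members, all with a sense read downstream, and a median of 3.16 against 6.79 in coding sequence. Of 15 compared, 3 were denser downstream and 11 in coding sequence. Igf2bp3, an oncofetal mRNA-binding protein gene, stood highest with 3583 reads at 95 positions, or 44.8 per kb against 6.32 in coding sequence. Khsrp, which promotes decay of AU-rich mRNAs, had 10.96 and 4.45, and Hnrnpd, which also binds AU-rich elements, had 3.13 and 51.5.

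The machinery of cleavage and polyadenylation had 15 members at a median of 3.33 against 7.51. Papola, the poly(A) polymerase gene, had 14.4 downstream, and Cstf2, a subunit of the cleavage stimulation factor, had 14.3. One of 7 compared was denser downstream and 4 were denser in coding sequence. MicroRNA and deadenylation factors had 21 members at 2.09 against 5.26, with 1 of 13 denser downstream and 9 in coding sequence. Ddx6, a helicase of mRNA decay bodies, led them with 13.9 downstream and 4.13 in coding sequence, where 72.4% of its windows could be placed, and Dicer1 had 3.90 and 8.56.

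Polycomb genes had 25 members at a median of 1.90 downstream and 5.56 in coding sequence. One of 12 compared, Phf19, a PRC2-associated protein gene, was denser downstream, with 11.2 against 1.15 positions per kb, and 9 were denser in coding sequence. Suz12 and Mtf2, a core and an accessory PRC2 gene, had 7.24 against 29.2 and 7.29 against 38.2. Genes listed for their long downstream regions had 25 members at 1.57 against 2.54.

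Fibroblast and matrix genes, which stand for other cells a culture could hold, had 13 members at 13.6 positions per kb downstream and 51.7 in coding sequence. Whole-gene sense reads ranged from 75 to 39715 (median 2269) over all 15 genes of this list and from 2 to 66761 (median 302.5) over the 30 stem cell genes. The part of other cells in the values above was not tested, and the amount of a cell type cannot be told apart from RNA per cell in such a table.

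**Figure D4:**
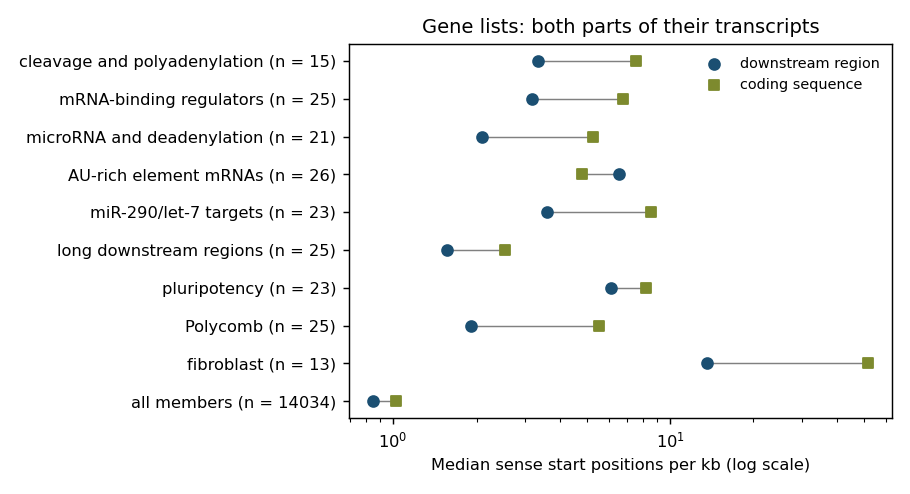
Median sense start positions per kb (log scale) in downstream regions (circles) and coding sequences (squares) for 9 gene lists and for all 14034 members; n is the number of members in each list. The AU-rich list is the one whose downstream median (6.56) lies above its coding median (4.80).

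The bases past the start positions were far from average. At bases 7, 8 and 9 past a sense downstream start the RNA had A in 55.6%, G in 51.4% and A in 40.06% of 62436 positions, against regional shares of 26.5% A and 22.6% G. AGA stood at these 3 bases in 13354 of 64539 positions, or 20.7%, and at the same distance from 2.18% of all bases of the same regions, each region weighted by its number of starts, a ratio of 9.48. Positions with at least 100 reads had it in 39.5% of 686 cases, and positions with 1 read in 17.3%. It was seen after 20.6% of starts of 36-base reads and 22.1% of starts of 40-base reads. Among the 186 regions with at least 500 sense reads whose highest start had a complete stretch, 105 had AGA there, as in most of the stretches shown above. Positions followed by AGA carried 32.4% of all downstream sense reads.

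Antisense starts and coding starts had the same feature, at ratios of 7.46 and 7.01 to their own regions. Read along the antisense RNA, AGA followed 19.01% of 24004 antisense positions, against 2.55% of all bases, and it followed 22.3% of coding starts, against 3.18%, both with the same weighting. Unweighted, 2.59% of coding bases and 2.15% of downstream bases were followed by AGA. Bases followed by AGA at this distance had 21.5 starts per kb downstream and 52.7 in coding sequence, and all other bases had 1.82 and 4.89. The ratio of downstream to coding density was 0.408 over the first kind of base and 0.372 over the second.

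Purines were above the regional share on both sides of the start. The 20 bases ending at a sense start were 52.96% purine, against 49.06% for all 20-base windows of the same regions, a difference of 3.90 percentage points. Bases 7 to 9 past the start were 72.06% purine, and bases 10 to 20 were 59.2%. After starts with at least 100 reads these shares were 84.1% and 64.3%. Without the starts followed by AGA, the windows ending at the start still had 3.48 percentage points more purines than their regions. In coding sequence, which is richer in purines (54.8%), bases 7 to 9 reached 76.9%. Whether the bases past the start reflect the RNA that was recovered or the making of the library was not tested.

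**Figure D5:**
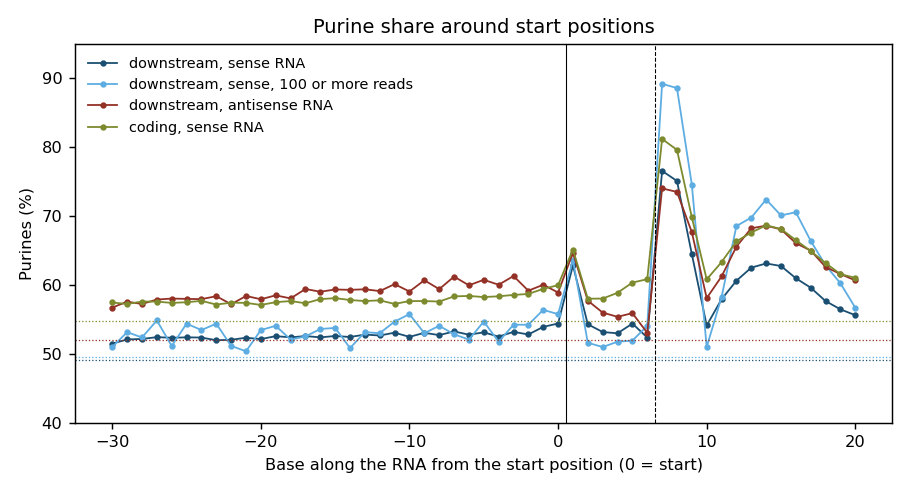
Purine share (%) at each base from 30 before to 20 past the start position, read along the RNA, for downstream sense starts, those with 100 or more reads, downstream antisense starts and coding starts; dotted lines are regional shares, and the bases between the vertical lines are those left out of the reads. All 4 curves peak at bases 7 and 8 and have a broader rise around base 14.

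Known elements of downstream regions were searched on the RNA strand only, by their letters, with overlapping matches allowed. AATAAA, the main polyadenylation signal, was in 86.6% of the 14034 regions and in the last 50 bases of 61.6% of them. Starts within 50 bases of it had a density of 2.20 per kb, against 2.22 elsewhere in the same regions. For this and the elements below, the 2 sets of bases were not matched for distance from the stop codon, along which density fell. The AU-rich pentamer ATTTA was in 82.8% of regions, with 1.86 starts per kb near it and 2.25 elsewhere. The Pumilio element TGTANATA was in 32.2%, with 2.15 near it and 2.07 elsewhere. Matches to microRNA seeds can be read from the mature sequences, given by RefSeq (GRCm38.p6) and shown with bases 2 to 8 in capitals.
let-7a-5p: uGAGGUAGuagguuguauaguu
miR-291a-3p: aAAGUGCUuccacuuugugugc
CTACCTC, which pairs with the capitals of let-7a-5p, was in 12.3% of regions, with 1.498 starts per kb near it against 2.17 elsewhere. GCACTTT, which pairs with bases 1 to 7 of miR-291a-3p, was in 16.6%, with 1.91 against 2.10. The hexamer GAAGAA, by contrast, was in 54.05% of regions and had 3.81 starts per kb near it against 1.99 elsewhere, a ratio of 1.92. A run of 6 A was in 61.6% and had 2.58 against 2.12. GAAGAA contains AGA, and the overlap with the bases past the start described above was not tested.

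Antisense RNA took a larger share downstream than in coding sequence. Downstream regions had 201499 antisense reads at 24096 positions. Reads in sense orientation to an annotated gene on the other strand were counted for that gene and are not among them. That is 21.5% of their reads (21.37 to 21.53) and 27.1% of their positions (26.84 to 27.42), against 7.03% and 16.9% in coding sequence. Per kb, however, antisense positions were fewer downstream (0.830) than in coding sequence (1.25), and the larger share went with the lower sense density. Antisense density was 0.722 per kb at 401 to 500 bases before the annotated end, 0.644 in the 100 bases that begin 300 bases before it, 0.458 in the next 100 and 0.301 in the last 100. An antisense read that starts close to the end cannot fit in the transcript, which bears on the last of these bins only.

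Few regions were read mainly in antisense. Among 2762 regions with 50 or more reads on both strands together, the whole interval of the antisense share was above 50% in 397, which is 14.4%. In coding sequences of the same genes it was 326 of 3484, or 9.36%. Counted by positions, 113 of the 2762 regions did. Over 50% of the antisense reads lay at 1 position in 163 of the 397 regions. For 155 of the 397 regions, the gene overlaps an annotated gene on the other strand somewhere along its span. The same holds for 1141 of the 2762. Whether the overlap lies in the downstream region itself was not examined. The median antisense share over the 2762 regions was 8.94%. N4bp2 had 37344 antisense reads at 37 positions and 261 sense reads at 17. Foxn2, a forkhead factor gene, had 6114 antisense reads at 11 positions and 1991 sense reads at 44. Ddost, a subunit gene of the oligosaccharyltransferase, had 3942 antisense reads at 16 positions and 14 sense reads. In D10Wsu102e both strands were read, with 3458 antisense reads at 378 positions beside 4010 sense reads.

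The 2 main read lengths of the table can be set side by side, though no label says which library gave which length. Reads of 36 bases gave 72023 downstream sense reads at 26476 positions, and reads of 40 bases 648349 at 49901. The 13219 positions found with both lengths made up 49.9% of the 36-base and 26.5% of the 40-base positions. The ratio of downstream to coding density was 0.314 in 36-base and 0.359 in 40-base reads, and the antisense share of positions 29.8% and 24.2%. Over 9039 regions, the numbers of positions in the 2 read lengths were correlated at 0.71 (Pearson, log2 with 1 added) and 0.616 (Spearman), where both lengths come from the same table and share the mRNA abundance.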

How the data were processed

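RNA from 7 nuclear RIP libraries of mouse embryonic stem cells was sequenced after template-switching library construction, per the labels' protocols. The authors deposited a table of read sequences with raw read counts, not normalized. No label says which of these libraries it holds, so it is used as 1 sample of unknown make-up. Abbreviations in its name could stand for wild type and a biological replicate, and for the removal of ribosomal and homopolymer reads. No label explains them, and they were neither tested nor used to assign the table. The submitters' processing notes name the build mm9, and their aligner was not given in the sources used here. Coordinates here are GRCm38 with GENCODE M21, from matching the sequences anew.

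Reads of at least 26 bases lost their first 6 bases and were matched with bwa 0.7.19 to all GENCODE M21 transcripts, with best hits of up to 2 mismatches kept. A read counted as sense for a gene if its best sense hits lay on that gene only and any antisense hits lay on genes overlapping it on the other strand. It counted as antisense only if it had no sense hit and its antisense hits lay on 1 gene. Its start base on the longest coding transcript set the region. Reads placed only on other isoforms (290591) or more than once in a transcript (10234) were left out. Densities are distinct start positions or reads per kb. A density difference of 2-fold or more, among genes with 20 or more positions, was counted; this is a rule of size, not a test. Antisense shares have 95% Clopper-Pearson intervals (scipy 1.17.1), which cover counting error only, and tables were handled with pandas 2.3.3. The placeable share comes from windows of 34 bases taken every 50 bases. With 1 table there are no replicates, groups or tests between conditions. The matching and counting steps were tested on simulated data.

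Genes named are the 10 regions with most sense reads, most positions and most positions per kb (50 reads or more), the 5 longest, the 4 with most antisense reads, the 4 densest of each list, and 8 chosen genes, of which about 40 were used. Some of these and some of their sequences are not reported here. Tet1, Sox2, Tfcp2l1, Lin28a, Hnrnpd, Tnf, Il6 and Atf3 fall outside this rule and were chosen after their values were seen. The members, the lists and these rules were chosen with earlier results of these data known. Alternatives covered mismatches, read length, stricter assignment, isoforms, overlapping genes, high positions and minimums.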

Additional observations from a re-analysis of the deposited data

How the results depend on the processing

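Of 95 recomputed values, 20 stayed within their counting interval (for counts of regions, within 1.5 times) and 75 moved past it. A change of direction was defined only for the density ratios, the purine difference and the length correlation, and 0 of these changed. Shares and counts of regions could not show such a change. The cause of each move was not tested beyond what the setting itself removes. With no mismatch allowed, the downstream share was 16.4% of sense reads and 27.0% of positions. The density ratio to coding sequence was 0.323 by positions and 0.166 by reads. The antisense share was 16.7% of reads and 21.8% of positions. The ratio of first to last 500 bases was 1.82 and the purine difference 2.77 points. Above 50% antisense were 244 of 2175 regions tested (11.2%). With no other gene within 1 further mismatch, these values, in the same order, were 16.8%, 27.05%, 0.324, 0.171, 18.9%, 21.3%, 1.85 and 2.54 points. Above 50% antisense were 251 of 2298 regions (10.9%). With genes that overlap none on the other strand, they were 22.9%, 31.8%, 0.384, 0.236, 17.97%, 27.7% and 1.52. The purine difference stayed within its interval. In these genes 242 of 1621 regions (14.9%) lay above 50% antisense. Of 1488 regions compared with their coding sequence, 213 (14.3%) were 2-fold denser.

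In 36-base reads the shares were 16.1% of reads and 26.1% of positions, the density ratios 0.314 and 0.165, the antisense shares 25.7% and 29.8%, the purine difference 4.65 points and the length correlation -0.51. In these reads 178 of 14034 regions (1.27%) had 50 reads. Of 1150 regions compared, 120 (10.4%) were 2-fold denser than coding sequence, beside 12.9% in all reads. Above 50% antisense were 52 of 259 (20.1%), beside 14.4% in all reads. In 40-base reads the share of reads was 17.7%, the density ratios 0.359 and 0.182, the antisense shares 21.03% and 24.2%, the purine difference 3.40 points and the length correlation -0.38. With reads of all lengths, the length correlation over regions with 50 or more sense reads was -0.58.

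With bases outside every coding isoform, the shares were 17.3% and 29.1%, the density ratio by reads 0.178 and the antisense share of reads 21.6%. Without each part's highest position, the share of reads was 15.5%, the density ratio by reads 0.154 and the antisense share 14.4%. With each distinct sequence counted once, these were 19.45%, 0.207 and 22.6%. Regions of at least 1000 bases gave 33.4% of positions and a ratio of 0.358, and the outer 300 bases a first-to-last ratio of 1.89. With minimums of 20 and 200 sense reads, 4014 and 522 of 14034 regions passed. With these minimums over both strands, 817 of 5012 regions (16.3%) and 100 of 681 (14.7%) lay above 50% antisense. With minimums of 10 and 50 positions, 787 of 4713 regions (16.7%) and 87 of 979 (8.89%) were 2-fold denser than coding sequence.

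The remaining settings were chosen after seeing the data. Without starts followed by AGA, the shares were 17.29% and 29.7%, the density ratios 0.372 and 0.177, the antisense shares 20.4% and 27.5% and the purine difference 3.48 points. Genes with 90% of windows placed in both parts gave density ratios of 0.343 and 0.150, and the ratio by reads without Serbp1 was 0.227. No paired analysis was possible because the single table carries no replicate numbers. At this depth 4867 regions had no sense read. Absence cannot be told there from low abundance, or from sequence that could not be placed on a single gene.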
